A study of Mus musculus with 18 samples.

Results

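The genes described here are 8 regulators of the posterior growth zone of the embryo: the caudal homeobox genes Cdx1, Cdx2 and Cdx4, the Wnt ligand genes Wnt3a and Wnt8a, the Fgf ligand genes Fgf8 and Fgf17, and the homeobox gene Nkx1-2. They were chosen by name. Every probe set of the expression arrays whose only gene symbol is one of these names was taken, which gave 12 probe sets for the 8 genes, out of 45037 probe sets and 18193 genes measured. Expression was followed on 18 Affymetrix arrays during the differentiation of HBG3 mouse embryonic stem (ES) cells into motor neurons, and the values are log2 signals.

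All 6 groups come from the single HBG3 line, with no other genotype. ES cells were sampled at day 0 (3 arrays) and embryoid bodies, the floating aggregates that the cells form in serum replacement medium, at day 2 (4 arrays). Embryoid bodies at day 2 with 8 h of retinoic acid (RA) gave 2 arrays, neural precursors at day 3 gave 3, progenitor motor neurons at day 4 gave 3, and postmitotic motor neurons at day 7 gave 3. RA and a hedgehog agonist were added at day 2, so the day 3, day 4 and day 7 cells had received both. For the 8 h arrays the labels mention only RA. No array covers 8 h of further culture without RA, so RA and time cannot be told apart in that comparison. Each array measured a whole culture, and a smaller share of expressing cells cannot be told apart from less RNA per cell.

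In the mouse embryo, Wnt and Fgf signals keep a pool of progenitors at the tail end of the embryo in a growing, undifferentiated state while the trunk is laid down. The Cdx proteins act downstream of these signals and of RA, switch on the more posterior Hox genes and sustain the growth zone. RA made by the neighbouring somites opposes Fgf signalling and lets cells leave the zone as neural tissue, and the same factor is used in culture to turn embryoid bodies into spinal neural precursors.

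The background level of the arrays was set at a log2 signal of 4. Between 55.2% and 56.9% of all probe sets lay below it on each array. The lowest value of the arrays is 2.24 on the log2 scale. Of the 216 member values (12 probe sets on 18 arrays), 159 lay within 0.1 of that lowest value and 33 reached the background level. A signal at the lowest value is a limit of the measurement and not a level of 0. Of the 8 genes, 5 (Cdx1, Cdx2, Wnt8a, Fgf17 and Nkx1-2) reached the background level on 2 or more arrays. Wnt3a, Cdx4 and Fgf8 did not reach it on any array.

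**Figure D1:**
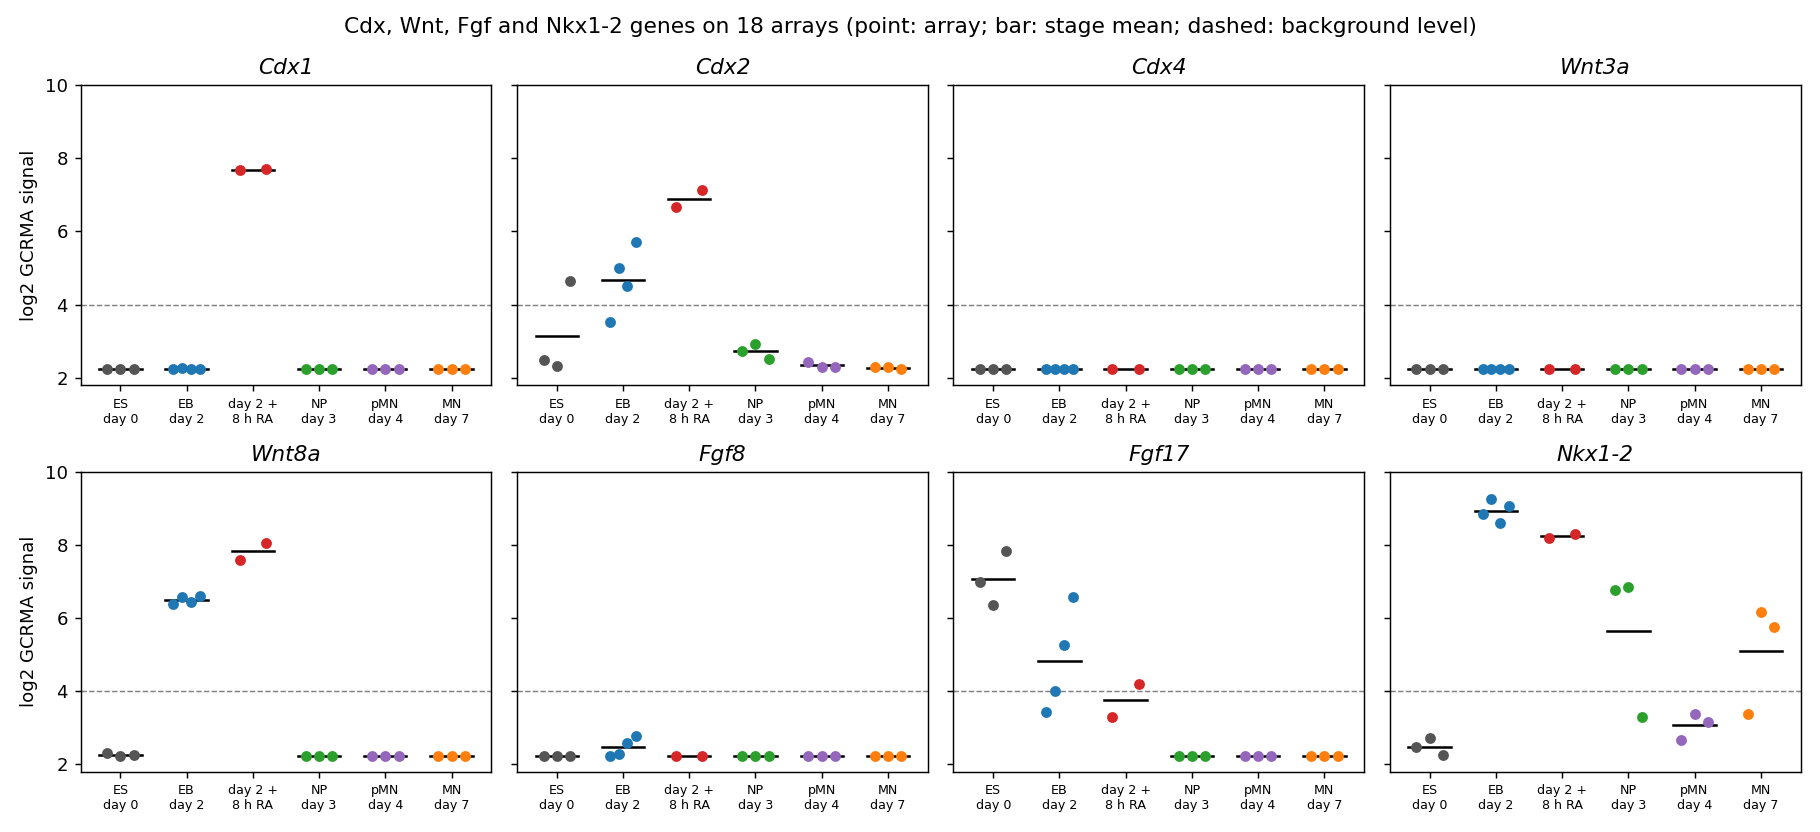
Log2 GCRMA signal (vertical axis) of the brightest probe set of each of the 8 genes on all 18 arrays, by stage (horizontal axis, time order). Points are arrays, bars are stage means and the dashed line is the background level of 4. Cdx1 stands above the line only on the 2 arrays with 8 h of RA, Wnt8a on those and on the 4 day 2 arrays, and Cdx4, Wnt3a and Fgf8 on none.

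Each comparison asked which of the 8 genes differed between a stage and the one before it. A gene was called when any of its probe sets passed both an adjusted p of 0.01 in the limma fit over all 18 arrays and a 2-fold difference. After 8 h of RA against day 2, 2 of the 8 genes were called higher (Cdx1 and Wnt8a) and 0 lower, where 0.363% of all genes were called higher and 0.0715% lower. At day 2 against day 0, 2 were called higher (Wnt8a and Nkx1-2) and 0 lower, against 2.02% and 2.46% of all genes. At day 3 against 8 h of RA, 0 were called higher and 3 lower (Cdx1, Cdx2 and Wnt8a), against 1.69% and 2.8% of all genes. At day 3 against day 2, 0 were called higher and 1 lower (Wnt8a), against 3.91% and 3.8% of all genes. No member was called at day 4 against day 3, where 0.627% of all genes were called higher and 0.792% lower, or at day 7 against day 4, where the shares were 10.9% and 8.17%. At an unadjusted p under 0.05 in limma, Nkx1-2 alone passed in each of these last 2 comparisons. The share of all genes that passed this unadjusted threshold in the fit was not counted, here or for the lists below. Comparisons that follow one another share arrays, so their counts are not independent.

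Cdx1, the caudal gene that is a known early target of RA in the embryo, was seen at 1 stage only. It measured 7.67 and 7.69 (log2 signal) on the arrays with 8 h of RA, against 2.24, 2.28, 2.24 and 2.24 on the day 2 arrays. On all 3 arrays at each of day 0, day 3, day 4 and day 7 it stood at 2.24. Both RA arrays therefore lay far above the other 16 arrays, all of which were at or next to the lowest value. The fitted difference was 5.44 ± 0.01 (log2, SE, adjusted p = 1.4e-23, limma), which with day 2 set to the background level is a rise of at least 12.8-fold. At day 3 the gene fell by 5.45 against 8 h of RA (adjusted p = 2.7e-23, limma), at least 12.8-fold. Because most values sat at the lowest level, where arrays cannot vary, the SE and p are too small, and the size and the lack of overlap are the firmer description. The calls were also made with day 2 replicates 1 and 2 only and with replicates 3 and 4 only.

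Cdx2, a caudal gene that also drives the trophoblast lineage and the gut, was above the background level before RA as well as after it. It measured 6.66 and 7.12 on the RA arrays, against 3.51, 4.998, 4.49 and 5.71 on the day 2 arrays. The RA arrays were above every day 2 array, but the difference of 2.21 ± 0.61 (log2, SE) was not called (adjusted p = 0.34, limma). At day 0 the ES arrays gave 2.49, 2.31 and 4.64, so 1 of the 3 was above the background level and inside the day 2 range. At day 3 Cdx2 stood at 2.73, 2.91 and 2.51, below both RA arrays and below every day 2 array. It fell by 4.17 ± 0.64 at day 3 against 8 h of RA (adjusted p = 0.0017, limma), at least 7.41-fold. That call was lost when RA replicate 1 (adjusted p = 0.015) or RA replicate 3 (adjusted p = 0.020) was left out, and when only the arrays of both stages were fitted (adjusted p = 0.020). Day 3 against day 2 gave -1.96 ± 0.53 and was not called (adjusted p = 0.039). By day 7 the values were 2.28, 2.29 and 2.24.

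Day 2 against day 0 gave 1.53 for Cdx2 and was not called (adjusted p = 0.15, limma), and without ES replicate 3 it was 2.28 and called (adjusted p = 0.0068). The day 2 arrays averaged between 4.91 and 5.54 (log2 signal) over a list of 10 trophoblast markers, and between 3.07 and 3.82 over a list of 10 markers of feeder fibroblasts, the cells on which ES cells are amplified. Of the trophoblast list, 5 were at the background level or above at day 0, and the list averaged 6.62, 5.16 and 6.63 (log2 signal) on ES replicates 1, 2 and 3. The feeder list averaged 3.74, 6.46 and 6.45 on the same arrays. The part of either cell type in the Cdx2 value of ES replicate 3 was not tested. Among the trophoblast list, Eomes was higher at day 2 than at day 0 (3.65 ± 0.36, adjusted p = 4.9e-05, limma), while Tfap2c and Krt7 were lower.

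Cdx4, the caudal gene with the narrowest tail bud expression, stayed at 2.24 to 2.25 on all 18 arrays. The second Cdx2 probe set (1422074_at) was at 2.24 on every array too, including both RA arrays on which the first one (1422075_at) approached 7. The files do not say which part of the transcript either probe set covers. The Cdx2 result therefore rests on 1 of 2 probe sets.

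The 250 bases before the RefSeq start of Cdx2 and Cdx4 (build GRCm38.p6) are shown because one caudal gene was measured well above the background level and the other was not. Capitals mark the letters ATGCAAAT, the octamer that POU domain factors such as Oct4 recognise. Cdx2, chr5:147307250-147307499, minus strand, and Cdx4, chrX:103321148-103321397, plus strand, are given 5′ to 3′ in the direction of the gene.
Cdx2: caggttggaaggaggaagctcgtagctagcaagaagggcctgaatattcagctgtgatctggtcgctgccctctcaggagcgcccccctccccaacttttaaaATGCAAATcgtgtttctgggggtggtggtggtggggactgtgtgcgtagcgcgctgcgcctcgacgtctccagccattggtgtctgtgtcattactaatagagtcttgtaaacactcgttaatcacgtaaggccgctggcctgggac
Cdx4: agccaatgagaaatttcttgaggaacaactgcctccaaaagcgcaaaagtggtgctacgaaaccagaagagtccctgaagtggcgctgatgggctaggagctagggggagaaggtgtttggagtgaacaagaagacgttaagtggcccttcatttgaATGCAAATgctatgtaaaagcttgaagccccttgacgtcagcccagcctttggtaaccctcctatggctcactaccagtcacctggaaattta

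The octamer stands once in each, on the strand of the gene, starting 147 bases before the start of Cdx2 and 93 bases before that of Cdx4. It was noticed on reading the Cdx2 sequence and was then counted, and 1.6% of the 32851 promoter windows of the same length hold it on either strand. Of the 8 genes, 4 (Cdx2, Cdx4, Wnt3a and Nkx1-2) have a window in the RefSeq table. None of the 4 holds AGGTCA (a form of the half-site of RA receptors, found in 14% of all windows), CTTTGA (a core of TCF/LEF sites, in 13.8%) or TTTAT (a core of CDX sites, in 37.3%) on either strand. The study accepted other forms of the half-site as well, which were not counted here. The absence concerns only these letters in these 250 bases.

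Wnt8a, a Wnt ligand of the primitive streak and tail bud, was the member with the most calls. It measured 6.37, 6.58, 6.44 and 6.60 (log2 signal) on the day 2 arrays, against 2.31, 2.24 and 2.26 on the day 0 arrays. After 8 h of RA it measured 7.59 and 8.06, and from day 3 on every array was within 0.1 of the lowest value. The 3 levels of day 0, day 2 and 8 h of RA did not overlap. At day 2 against day 0 it rose by 4.23 ± 0.08 (adjusted p = 3.3e-11, limma), at least 5.65-fold. After 8 h of RA against day 2 it rose by a further 1.33 ± 0.09, or 2.52-fold (adjusted p = 1.3e-05), a call that was lost when only the arrays of both stages were fitted (adjusted p = 0.21). At day 3 it fell by 5.59 against 8 h of RA (adjusted p = 2.3e-12), at least 14.2-fold, and by 4.26 against day 2 (adjusted p = 6.0e-12), at least 5.65-fold. Because 12 of the 18 Wnt8a values lay within 0.1 of the lowest value, where arrays hardly vary, these SEs and p are too small. The sizes and the lack of overlap are the firmer description. With replicate numbers as a block, day 3 against day 2 gave -4.24 and was called in the fit of all arrays (adjusted p = 1.1e-07), and gave -4.23 and was not called in a fit of both stages alone (adjusted p = 0.027). That smaller fit had 2 residual degrees of freedom and called 0 of all 18193 genes, with 8088 probe sets at an unadjusted p under 0.05.

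Wnt3a, the ligand that maintains the tail bud progenitors, gave 2.24 on all 18 arrays. Its signal did not differ between any of the 6 stages at the resolution of this probe set (1422093_at).

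**Figure D2:**
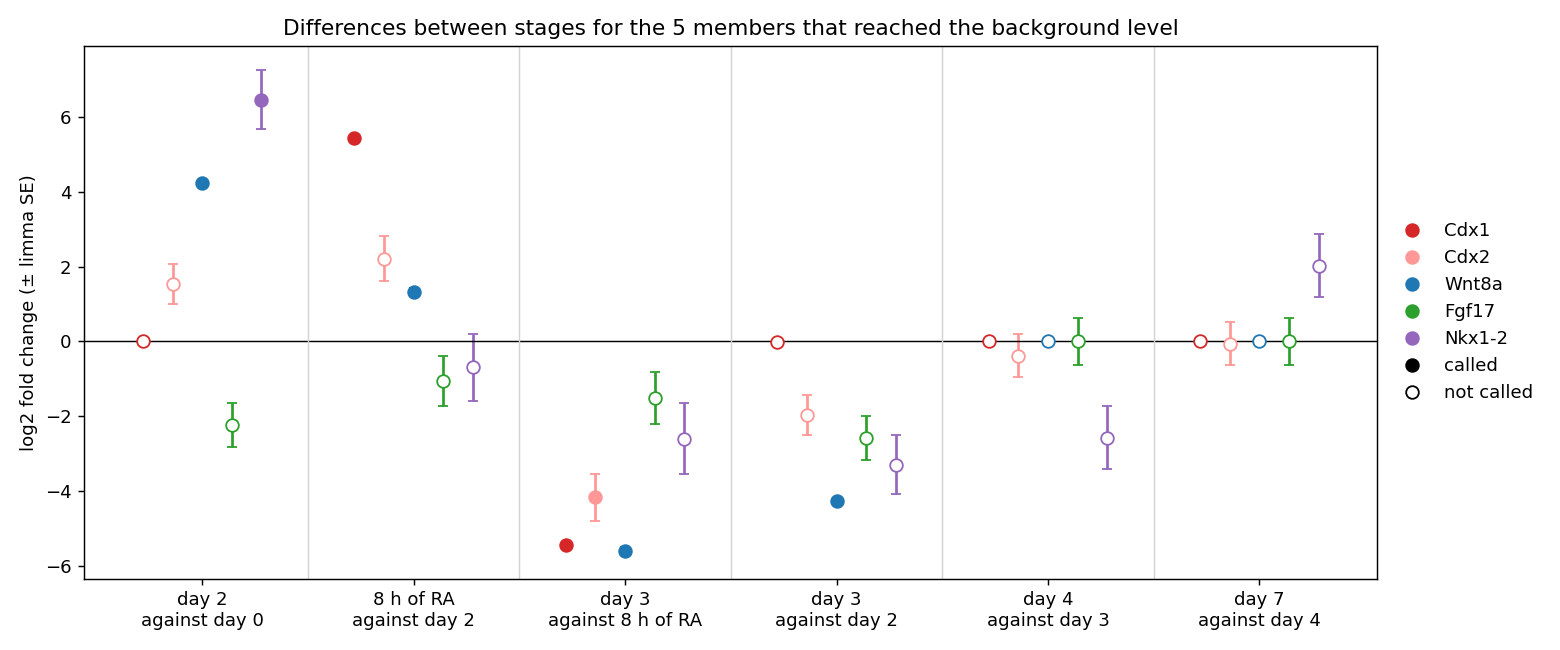
Log2 fold change with its limma SE (vertical axis) for the 5 genes that reached the background level, in each of the 6 comparisons (horizontal axis, later or RA-treated stage over the earlier one). Filled points were called and open points were not. Cdx1, Cdx2 and Wnt8a all lie below 0 at day 3 against 8 h of RA, at -5.45, -4.17 and -5.59.

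Fgf17, an Fgf ligand of the Fgf8 subfamily, was the only member with its highest level in ES cells. It measured 3.42, 4.01, 5.25 and 6.58 (log2 signal) at day 2, against 6.99, 6.34 and 7.84 at day 0. It was at 3.29 and 4.21 after 8 h of RA, and at 2.24 on every array from day 3 on. The day 2 arrays spread over more than 3 log2 units and the highest of them was inside the day 0 range. Day 2 against day 0 gave -2.24 ± 0.59 and was not called (adjusted p = 0.046, limma). It was called without day 2 replicate 4, the highest array (-2.83, adjusted p = 0.0028), with day 2 replicates 1 and 2 only (-3.34, adjusted p = 5.3e-04), and with the replicate numbers as a block (-2.65, adjusted p = 0.0099). Replicate numbers did not pair arrays between day 0 and day 2 (correlations 0.21, -0.20 and -0.13), so the blocked fit carries little weight here. After 8 h of RA against day 2 the difference was -1.07 (adjusted p = 1), and with day 2 replicates 1 and 2 only it was 0.0312. Day 3 against day 2 gave -2.58 and was not called (adjusted p = 0.015, limma). Without day 2 replicate 1, the lowest array, it was -3.05 and called (adjusted p = 0.0040). For this probe set 9 of the 18 values lay within 0.1 of the lowest value, where arrays hardly vary, so these SEs and p are too small. The second Fgf17 probe set (1421523_at) measured 2.24, 2.24, 2.24 and 4.21 at day 2, against 3.46, 4.46 and 3.52 at day 0. It was at 2.24 on every later array, so both probe sets had their highest stage mean at day 0, and in both the highest day 2 array was replicate 4.

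Fgf8, the Fgf ligand of the growth zone and of several other signalling centres, did not reach the background level. It was at 2.24, 2.28, 2.59 and 2.78 on the day 2 arrays, against 2.24 on each day 0 array, and at 2.24 on every array from 8 h of RA to day 7. These values leave no order of the stages that could be read as expression.

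Nkx1-2, a homeobox gene of the preneural cells beside the node and primitive streak, was high in embryoid bodies. It measured 8.85, 9.25, 8.59 and 9.06 (log2 signal) at day 2, against 2.48, 2.71 and 2.25 at day 0. The rise of 6.46 ± 0.79 at day 2 against day 0 (adjusted p = 3.0e-04, limma) was at least 30.7-fold and was the largest bound among the members in any comparison. After 8 h of RA it measured 8.20 and 8.29, below every day 2 array, but the difference of -0.69 was not called (adjusted p = 1). At day 3 the arrays gave 6.77, 6.86 and 3.31, so replicate 3 was below the background level and the other 2 were well above it. Day 3 against day 2 gave -3.29 ± 0.79 with no overlap and was not called (adjusted p = 0.020), and day 3 against 8 h of RA gave -2.60 (adjusted p = 0.18). Without day 3 replicate 3 these differences were -2.12 (adjusted p = 0.055) and -1.43 (adjusted p = 0.32). Day 3 against day 2 was called with dim probe sets left out (adjusted p = 0.0052), with values raised to the background level (adjusted p = 0.0085) and with probe sets averaged per gene (adjusted p = 0.0040).

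At day 4 Nkx1-2 measured 2.68, 3.38 and 3.15, below the 2 high arrays of day 3. At day 7 it measured 3.37, 6.16 and 5.76. Day 4 against day 3 gave -2.57 and was not called (adjusted p = 0.28, limma). Without day 3 replicate 3 the difference was -3.74 and was called (adjusted p = 0.0086). Day 7 against day 4 gave 2.03 (adjusted p = 0.13), with 2 of 3 day 7 arrays above every day 4 array and the lowest one inside their range. Nkx1-2 has 3 probe sets in all. Of the others, one (1426177_a_at) stayed at 2.24 on all arrays, and the other (1422049_at) stayed under the background level, with its highest values, up to 3.51, at day 2 and then 2.98 and 2.92 after 8 h of RA.

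**Figure D3:**
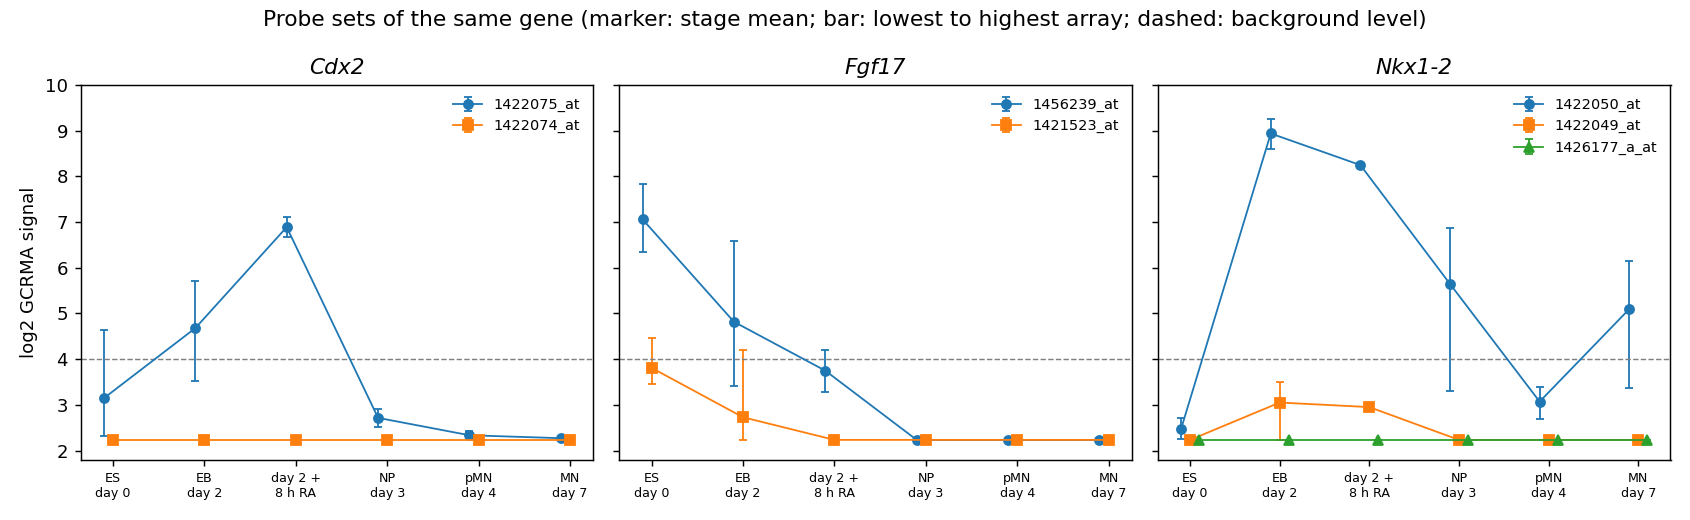
Log2 GCRMA signal (vertical axis) of every probe set of Cdx2, Fgf17 and Nkx1-2 by stage (horizontal axis, time order). Markers are stage means, bars run from the lowest to the highest array and the dashed line is the background level of 4. One Cdx2 and one Nkx1-2 probe set stay at 2.24 throughout, while the 2 Fgf17 probe sets both have their highest mean at day 0.

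The window before the start of Nkx1-2 is shown for comparison with those of the caudal genes (chr7:132599638-132599887, GRCm38.p6, minus strand, 5′ to 3′ in the direction of the gene). Capitals mark CCGCCC, the GC box GGGCGG read on the other strand, which SP factors bind.
Nkx1-2: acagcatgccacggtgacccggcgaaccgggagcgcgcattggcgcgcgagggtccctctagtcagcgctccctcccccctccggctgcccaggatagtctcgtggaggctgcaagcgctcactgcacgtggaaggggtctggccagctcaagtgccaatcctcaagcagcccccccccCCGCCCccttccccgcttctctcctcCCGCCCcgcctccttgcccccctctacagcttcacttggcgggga

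The GC box stands at 2 places, starting 71 and 45 bases before the start, and 32.7% of all windows hold at least 1 on either strand. The windows of Cdx2 and Cdx4 hold none, and that of Wnt3a, which was at the lowest value on every array, holds 9. G and C make up 69.6% of the Nkx1-2 window, 55.2% of that of Cdx2, 48.4% of that of Cdx4 and 87.6% of that of Wnt3a, and the median of all windows is 52.4%. The Nkx1-2 window holds 19 CpG pairs, the Cdx2 window 13, the Cdx4 window 5 and the Wnt3a window 41, with a median of 6.

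The order of the stages differed between the genes. Cdx1, Cdx2 and Wnt8a had their highest mean after 8 h of RA, with no overlap with day 2, the next highest stage. Of these differences, that of Cdx2 was not called. The share of all probe sets without overlap between these groups of 2 and 4 arrays was not counted. Nkx1-2 was highest at day 2 and next highest after 8 h of RA, without overlap, while its day 3, day 7, day 4 and day 0 levels overlapped neighbour by neighbour. Fgf17 was highest at day 0, and its day 0, day 2 and 8 h levels overlapped neighbour by neighbour. Across the 18 arrays Pearson's r was 0.89 between Cdx2 and Wnt8a, 0.82 between Wnt8a and Nkx1-2, and 0.74 between Cdx1 and Cdx2. For Fgf17 it was 0.39 with Cdx2, 0.23 with Wnt8a, -0.01 with Cdx1 and -0.04 with Nkx1-2. These are descriptions over arrays that share stages and many values at the lowest level.

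The genes whose brightest probe sets ran most like each member were found by Pearson's r over the 18 arrays among 4914 genes with a clear range. For Cdx1 they were Ccdc88b (0.97), Cpvl (0.96) and Sowaha (0.95), which had stage means of 4.57, 6.005 and 5.33 after 8 h of RA and of 2.32, 2.44 and 2.61 at day 2. For Cdx2 they were Fbp1 (0.95), a gluconeogenic enzyme, Nt5e (0.94), which makes adenosine at the cell surface, and the kinase gene Lrrk2 (0.92). For Wnt8a they were the galanin receptor gene Galr2 (0.99), the matrix gene Thbs4 (0.96) and the chemokine gene Cxcl12 (0.95). Galr2 was also among the 3 for Nkx1-2 (0.84), after Prickle1 (0.91), a planar polarity gene, and Lhpp (0.86). For Fgf17 they were Mfap5, Zfp296 and Sfn (0.96 each), with stage means of 2.25, 2.24 and 3.39 at day 3, against 5.71, 8.32 and 8.03 at day 0. These r values are the highest among all candidates, so their height is partly a result of the choice. Those of Cdx1 rest on the 2 RA arrays, as Cdx1 was within 0.1 of the lowest value on the other 16.

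The other genes of both pathways were followed from lists of names. Among 20 other Fgf family genes, 2 were called lower after 8 h of RA against day 2. The same number was called lower at day 3 against day 2, in both cases Fgf4 and Fgf5. The shares of all genes called lower were 0.0715% and 3.8%. Fgf5, a ligand of the primed epiblast, measured 5.32 and 6.01 (log2 signal) after 8 h of RA, against 8.92, 9.41, 8.999 and 9.23 at day 2. It fell by 3.47 ± 0.30 (adjusted p = 5.6e-05, limma) with no overlap. Fgf4, an ES cell ligand, fell by 1.34 ± 0.14 after RA (adjusted p = 3.9e-04) and by 7.53 at day 3 against 8 h of RA (adjusted p = 6.3e-12), at least 94.7-fold. It measured 3.18, 2.78 and 3.14 at day 3, so Fgf4, Fgf5 and Fgf17 were all under the background level on the day 3 arrays. Fgf15, a ligand of neural progenitors, measured 7.58, 7.51 and 7.97 at day 3.

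Among 17 other Wnt ligand genes, 0 were called in either direction after 8 h of RA (limma). Of these, 14 had means under the background level in both groups. At an unadjusted p under 0.05 in limma, 3 were higher (Wnt2, Wnt9a and Wnt10b) and 1 was lower (Wnt3). Wnt2 and Wnt10b differed by only 0.06 and 0.098 (log2) next to the lowest value, where arrays hardly vary. Wnt9a had stage means of 5.59 after RA and 3.62 at day 2. Wnt3, a ligand needed to form the primitive streak, measured 2.34 and 4.59 after 8 h of RA, against 4.83, 5.73, 5.64 and 6.19 at day 2. Both RA arrays were below all day 2 arrays, without a call. At day 3 against day 2, Wnt3 fell by 3.37 ± 0.61 (adjusted p = 0.0033), at least 3.03-fold, and Wnt5a, a ligand of the noncanonical pathway, rose by 6.03 ± 0.27 (adjusted p = 1.9e-08), at least 31.7-fold. Wnt5a measured 9.01, 8.63 and 9.31 at day 3, against 3.57, 2.82, 2.84 and 2.58 at day 2. Wnt8a and Wnt3 were thus at or near the lowest value at day 3 while Wnt5a and Wnt5b had stage means of 8.98 and 8.09.

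Of 11 genes that Fgf signalling induces, several of which feed back on it, 0 were called after 8 h of RA and 6 were called lower at day 3 against 8 h of RA, with a list median of -2.84. In the latter comparison 2.8% of all genes were called lower. The median of all genes was near 0 in each comparison. At day 3 against day 2, where 3.8% of all genes were called lower, 7 of the 11 were called lower, with a median of -2.90. The same number was called with the replicate block over all arrays. Pluripotency markers moved with them: 4 of 6 were called lower at day 3 against 8 h of RA (median -3.80) and 5 of 6 at day 3 against day 2 (median -4.47), and their part in the Fgf target values was not tested. Il17rd, an inhibitor of Fgf receptors, fell by 5.54 ± 0.34 (adjusted p = 3.8e-07, limma), at least 20.4-fold, and Spry4, another inhibitor, fell by 4.94 (adjusted p = 1.8e-05), at least 15.7-fold. Etv5, a transcription factor induced by Fgf signalling, fell by 4.76 (adjusted p = 1.8e-05). At day 7 against day 4, where 10.9% of all genes were called higher, 3 of the 11 were called higher: Dusp4 by 4.50 ± 0.75 (adjusted p = 7.2e-04), Etv5 by 3.06 and Spry2 by 1.62.

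Of 10 Wnt target and feedback genes, 0 were called in any of the 6 comparisons (limma). Of all genes, between 0.0715% and 10.9% were called in 1 direction in these comparisons. In each comparison 6 or 7 of the 10 had means under the background level in both stages, which limits what could be called. At an unadjusted p under 0.05, Axin2 and Lef1 were higher at day 2 against day 0, Nkd2 was higher after 8 h of RA (0.22, under the background level in both groups), Lef1 was lower at day 3 against day 2 and against 8 h of RA, Axin2 was lower at day 7 against day 4 (-1.08), and no gene of the list passed at day 4 against day 3. Axin2, the commonly used readout of the pathway, had stage means of 7.38, 8.82, 8.73, 8.44, 8.34 and 7.26 from day 0 to day 7. Lef1, a nuclear effector, had 8.02, 10.79, 9.74, 6.60, 4.74 and 4.19, with 1 of the 3 day 0 arrays far below the others.

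**Figure D4:**
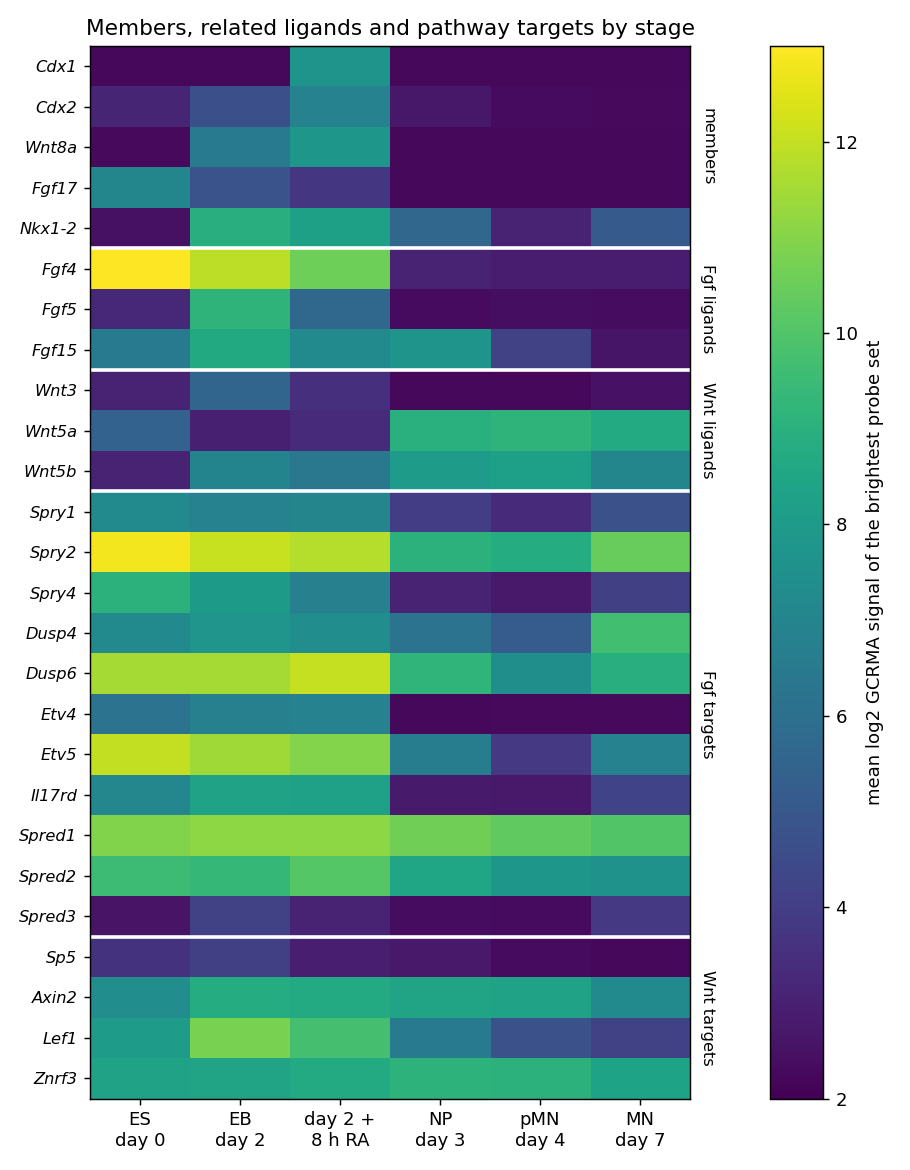
Mean log2 GCRMA signal (colour scale) of the brightest probe set of each gene (rows) at each stage (columns, time order), for the 5 members that reached the background level, related ligands and targets. Of the 11 Fgf targets, Etv4, Il17rd and Spry4 have stage means of 2.26, 2.81 and 3.04 at day 3, while Spred1, Dusp6, Spry2 and Spred2 have 10.61, 9.18, 9.06 and 8.51. Of the Wnt targets, Axin2 has 8.44 and Lef1 6.60 at day 3.

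Among 18 Wnt and Fgf receptor and co-receptor genes, 7 were called higher and 2 lower at day 3 against day 2, against 3.91% and 3.8% of all genes. Fgfr3 rose by 3.51 ± 0.44 (adjusted p = 2.1e-04, limma) and Fgfr4 by 4.00 ± 0.51 (adjusted p = 2.5e-04), at least 4.998-fold, while Ror1, a receptor for Wnt5a, fell by 3.73 ± 0.39 (adjusted p = 4.6e-05), at least 5.57-fold. At day 3 the ligand genes Fgf4, Fgf5 and Fgf17 were thus under the background level while Fgfr2 and Fgfr3 had stage means of 12.38 and 8.06. Of the 20 other Fgf genes listed, 4 had a day 3 mean at the background level or above: Fgf13 (7.89), Fgf15 (7.69), Fgf14 (6.69) and Fgf9 (4.28).

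Hox genes of paralog groups 4 to 9 include genes that Cdx proteins regulate in the embryo. Of 16 measured, 6 were called higher after 8 h of RA against day 2 and 0 lower, against 0.363% and 0.0715% of all genes. All 6 belong to groups 4 to 6. Hoxb4 rose by 7.41 ± 0.34 (adjusted p = 2.1e-07, limma), at least 71.8-fold, Hoxb5 by 7.74 ± 0.56 (adjusted p = 1.4e-05), and Hoxa5 by 5.45 ± 0.37 (adjusted p = 8.8e-06), at least 24.7-fold. At day 3 against day 2, 7 of the 16 were called higher and 0 lower (3.91% and 3.8% of all genes), with a list median of 2.16. Hoxb4 and Hoxb5 had stage means of 11.13 and 11.64 at day 3, when Cdx1, Cdx2 and Cdx4 were all under the background level.

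Of 23 further genes of the growth zone and presomitic mesoderm, 1 was called higher after 8 h of RA and 1 lower, against 0.363% and 0.0715% of all genes. The higher one was Cyp26a1, which encodes an enzyme that degrades RA and is a known target of it. It measured 11.76 and 11.80 after 8 h of RA, against 4.87, 4.74, 6.44 and 4.40 at day 2, a rise of 6.67 ± 0.60 (adjusted p = 9.3e-05, limma). Cyp26a1 had a stage mean of 11.48 at day 3, unlike Cdx1, which had returned to the lowest value by then. The lower one was Fgf4. The transcription factor gene Sp8 rose by 4.63 ± 0.57 at day 2 against day 0 (adjusted p = 3.1e-04), at least 10.6-fold, and by 3.27 at day 3 against day 2 (adjusted p = 0.0025). Of 10 paraxial mesoderm markers, 2 had a mean at the background level or above after 8 h of RA and 2 at day 2, and the list averaged 3.26 to 3.44 on the RA arrays and 3.27 to 3.40 on the day 2 arrays.

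The stage labels were checked against marker lists. Pluripotency markers averaged between 11.5 and 12.1 (log2 signal) on the day 0 arrays, neural precursor markers between 9.12 and 9.50 at day 3, motor neuron progenitor markers between 9.68 and 10.03 at day 4, and motor neuron markers between 7.76 and 8.55 at day 7. Neural precursor markers were as high at day 4 (8.91 to 9.51), and progenitor markers lay between 8.46 and 10.002 at day 7, so neither list sets its stage apart from the one after it. Day 2 replicates 3 and 4 correlated more with the RA arrays (mean r of 0.990 and 0.984 across probe sets) than replicates 1 and 2 did (0.976 and 0.972). The calls of Cdx1 and Wnt8a after RA were made with either pair, and the RA arrays carry replicate numbers 1 and 3. The study describes biological triplicates, and beyond the replicate number the labels do not tie an array to a culture.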

How the data were processed

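The RNA measured on the 18 Affymetrix arrays was amplified, labelled and hybridized by the authors. The values deposited for each probe set are log2 signals. To obtain them the authors ran GCRMA on all arrays together, which adjusts for background from the probe sequences, normalizes between arrays and summarises the probes. Low signals can share 1 lowest value after this step. The versions of GCRMA and limma that the authors used are not given in the sources used here. Values were used as deposited, after 64 control probe sets were left out. Of 45037 probe sets, 34945 had 1 gene symbol, 932 had more than 1 and 9160 had none in the table used here.

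Stages were compared in limma 3.58.1 under R 4.3.3. One mean per stage was estimated from all 18 arrays together (12 residual and 0.515 prior degrees of freedom), with Benjamini-Hochberg adjustment over all 45037 probe sets. The fit was checked on simulated normal values, with differences planted only in probe sets whose mean was above the background level. That check does not cover values held at the lowest level, where most member values lie. The thresholds were those of the study, 0.01 for the adjusted p and 2-fold for the change. A gene was called if 1 or more of its probe sets passed, and its value is that of its brightest probe set, the one with the highest mean over all arrays. Errors are SEs from the fit. Where every array of a group was under a log2 signal of 4, its mean was set to 4 and the fold is written as "at least". The number of arrays limits the precision, and p-values measure the spread between these arrays.

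Replicate numbers were taken to pair arrays between day 2 and day 3 and between day 3 and day 4, since arrays of the same number deviated together from their group means (correlation across probe sets 0.48, 0.35 and 0.48, then 0.64, 0.42 and 0.75). They did not pair them between day 0 and day 2 (0.21, -0.20 and -0.13) or between day 2 and 8 h of RA (-0.22 and -0.45).

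The members, the lists and the rule for named genes were chosen with earlier results of these data known. Named are all members and their probe sets, the 3 most alike genes of each member whose highest stage mean is at least 6 and whose stage means span at least 2, and from each list up to 3 called genes with the largest changes in a comparison, with any list gene that a sentence on a member turns on. The list genes T, Tcf7, Etv1, Hoxd4, Hoxa6, Hoxb8 and Pax2 were not analysed here, as no probe set carries their symbol alone. Promoter windows are from the RefSeq table of GRCm38.p6, which has 4 of the 8 genes. Figures were drawn with matplotlib 3.10.9 in Python 3.11.15. Alternatives were other array sets, a replicate block, other moderation, filters, floors, normalizations and probe set rules, and each array left out in turn.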

Additional observations from a re-analysis of the deposited data

Results flagged for a closer look

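Among the 4 day 2 arrays, Cdx1 (1449582_at) on replicate 2 stood apart from the others at 2.28 (log2 signal), within a range of 0.043, far under the background level of 4. The second Fgf17 probe set (1421523_at) on day 2 replicate 4 stood apart at 4.21, just above that level, while the other 3 arrays were at 2.24. The first Fgf17 probe set was also highest on that array, at 6.58. For normally spread values, chance alone sets apart about 1 group in 20 by this criterion. Values at or next to the lowest level hardly spread, so that rate need not hold for these groups.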

How the results depend on the processing

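The 19 member differences of at least 1 log2 unit were recomputed under each alternative that applied to them, which gave 336 values: 313 kept their direction and side of the threshold, 17 passed it newly, 5 lost it and 1 changed sign. The sign change was Fgf17 after 8 h of RA, 0.0312 with day 2 replicates 1 and 2 only. After 8 h of RA against day 2, 2 members were called, and 1 when only the arrays of both stages were fitted. At day 3 against day 2, 1 member was called. This became 4 at an adjusted p under 0.05, 3 with dim probe sets left out, 2 with values raised to the background level, 2 with probe sets averaged per gene, 4 with array weights, 3 with day 2 replicates 3 and 4 only, and 0 with the replicate block in the arrays of both stages. With the replicate block in all arrays it was 1, and the block changed 1 other call, that of Fgf17 at day 2 against day 0, so that 3 members were called there. Leaving out each array in turn gave 2 to 3 members at day 2 against day 0, 2 to 2 after 8 h of RA, 2 to 3 at day 3 against 8 h of RA, 1 to 3 at day 3 against day 2, 0 to 1 at day 4 against day 3, and 0 to 0 at day 7 against day 4. The 1 member at day 4 was Nkx1-2 without day 3 replicate 3. The causes were not tested. Where an array of the RA group was left out, the spread of the remaining one was taken from the other groups. Signals under the background level limit what can be ordered, and 3 of the 8 genes were under it on every array.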

Other observations

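ES replicate 3, on which Cdx2 was at 4.64, also held the highest day 0 values of Wnt3, Eomes and Cyp26a1, which were looked up after its Cdx2 value was seen. Wnt3 measured 2.24, 2.24 and 4.73 (log2 signal) on ES replicates 1, 2 and 3, Eomes measured 3.99, 2.98 and 4.72, and Cyp26a1 measured 4.53, 3.39 and 5.95. Sp5 measured 2.27, 2.27 and 6.29 on the same arrays, Axin2 measured 7.24, 6.81 and 8.09, and the first Fgf17 probe set measured 6.99, 6.34 and 7.84. Sp8, Wnt5a, Wnt5b and Spry2 were also highest on replicate 3. Some genes did not share this. Wnt8a was at 2.31, 2.24 and 2.26 and Nkx1-2 at 2.48, 2.71 and 2.25, Fgf4 was lowest on replicate 3 (13.23, 13.19 and 13.11), and Fgf15 and Tcf15 were highest on replicate 1.

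At day 7 against day 4, 2 of 17 other Wnt ligand genes and 2 of 20 other Fgf family genes were called higher in limma. Of all genes, 10.9% were called higher. With day 4 set to the background level, the rise was at least 6.28-fold for Wnt4 (adjusted p = 1.4e-05), at least 6.45-fold for Fgf11 (adjusted p = 5.4e-04) and at least 5.52-fold for Fgf12 (adjusted p = 1.4e-09).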
